A study of Mus musculus with 8 samples.

Results

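Long noncoding RNAs (lncRNAs) that were well expressed in bone marrow-derived macrophages (Mϕ) were followed across naïve and efferocytic Mϕ, with and without an inflammatory stimulus. The set held every gene that the mouse GENCODE annotation types as lncRNA and whose mean normalised read count over the 8 samples was at least 100, without Gas5 and the genes named Snhg, which are hosts of small nucleolar RNAs. Of 9657 lncRNAs with a row in the table, 235 reached that mean, and 224 remained after Gas5 and 10 Snhg genes were set aside. The genes were thus chosen by their mean normalised count over all samples, and that level is given here as a description. Just inside the limit were A430057M04Rik (100.62), Gm28364 (100.60) and 4930404A12Rik (100.13), and just outside it were Gm10425 (99.8), A730081D07Rik (99.7) and Gm49172 (99.6). All 224 passed the filter of the statistical test, a mean of at least 10.

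All Mϕ came from adult wild-type C57BL/6 animals of both sexes and had been differentiated with M-CSF and GM-CSF. Ctrl Mϕ received neither treatment, and LPS Mϕ received 100 ng/mL lipopolysaccharide with 100 U/mL IFNγ for 6 h. Eff Mϕ were co-cultured at 1:5 for 16 h with apoptotic NIH-3T3 cells, a mouse fibroblast line used here as a single clone in which a dimerizer (10 nM) sets off caspases and apoptosis. The dimerizer (10 nM) stayed present during the co-culture, and none is stated for Ctrl and LPS Mϕ. Exposure of the Mϕ to it therefore cannot be told apart from efferocytosis in these comparisons. LPSEff Mϕ had the co-culture, a wash and then the same 6 h of LPS/IFNγ. CD45+ cells were isolated before RNA extraction. Each group had 2 samples, numbered 1 and 2, and nothing in the sources used here ties a number to a mouse. P-values therefore measure the spread between these samples, and in bulk RNA fewer cells of a type and less RNA per cell cannot be told apart.

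LncRNAs are transcripts that are not known to be templates for large proteins. Some act in the nucleus as scaffolds of RNA-protein bodies or coat a chromosome, others are the primary transcripts from which microRNAs or small nucleolar RNAs are cut, and many start beside or opposite a protein-coding gene and have no known role. In macrophages, Toll-like receptor and interferon signalling switches on a set of such transcripts along with the cytokine and antiviral genes.

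The 8 libraries held between 3481288 and 12020918 reads in genes, Ctrl replicate 1 being the shallowest, and 3 reads corresponded to 1.73 to 5.71 normalised counts. The 10 macrophage markers summed to between 105700.0 and 153405 normalised counts in every sample, while markers of B cells, T and NK cells and erythroid cells summed to at most 34.9. Sums over 21 fibroblast markers ran from 282 to 509 (Ctrl), 1169.9 to 1214 (LPS), 2497 to 4663 (Eff) and 6391 to 7120 (LPSEff), and of the 19 tested, 7 were higher in Eff than in Ctrl and 8 in LPSEff than in LPS. Dendritic cell markers (5) summed to 2127 to 2867 (Ctrl), 8384 to 16564 (LPS), 1339 to 1721 (Eff) and 6564 to 6759 (LPSEff), and neutrophil markers (8) to 643 to 973, 1534 to 1745, 1058 to 1399 and 1612 to 2176 in the same order. The part of these cells in the lncRNA results was not tested.

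Most of these lncRNAs lie on top of other genes, and this decides how far their counts can be read. Of the 224, 174 share exon bases with a protein-coding gene on the opposite strand only, 19 with one on the same strand only and 5 with coding genes on both strands. The remaining 26 share no exon base with a coding gene. The deposited counts did not separate overlapping genes. Both identifiers of Rmrp, the RNA of RNase MRP, cover nearly the same bases of one strand and held 274575 and 274571 reads. Of 15 same-strand gene pairs sharing at least 90% of their bases, 11 had read totals within 0.1% of each other. The same was seen across strands. Gm28872 overlaps the minor spliceosome RNA Rnu11 on the other strand over 134 bases, and Rnu11 held between 99.5% and 100% of the count of Gm28872 in each sample. Of 90 genes whose exons lie wholly within those of an opposite-strand gene, 87 never exceeded that gene in any of the 8 samples. The stated counting, the defaults of htseq-count, would use strand and leave out reads over more than 1 gene, so the values and the stated setting do not match, and the setting used is in doubt. Reads of a lncRNA and of a coding gene over shared bases cannot be told apart in these values. The 26 lncRNAs without coding overlap are therefore described first, and the other 198 beside the highest of the coding genes they overlap, a grouping made after the values had been seen.

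Levels ran over a wide range, both between lncRNAs and between groups. The median of the 224 mean counts was 206 and 14 were at 1000 or more. Per kilobase of exon, Rmrp stood highest at 116522 normalised counts, followed by Malat1 at 2389, AW112010 at 1752, Gm28872 at 1723 and Gm50251 at 1538. The highest group mean was a median of 2.09 times the lowest, less than 1.5 times in 60 lncRNAs and more than 4 times in 45. In 88 of the 224, at least 1 group mean was itself under 100. Together the members took up 1.31% to 1.48% of all normalised counts in unstimulated and 1.67% to 2.02% in stimulated samples. Gm26811, opposite the semaphorin receptor gene Plxna1, was among the 10 of highest count and held 1405 and 1617 (Ctrl), 1462 and 1137 (LPS), 1591 and 1596 (Eff) and 1539.9 and 1782 (LPSEff), with no group apart.

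More of these lncRNAs were called upon LPS/IFNγ than upon efferocytosis, and more of the calls upon LPS/IFNγ were rises than falls. In naïve Mϕ, 62 of the 224 were higher and 17 lower in LPS than in Ctrl at an adjusted p under 0.05 (limma on log2 counts, adjusted over all 16309 genes tested), against 12.4% of all tested genes called higher and 11.6% called lower (16.9% and 15.6% of genes with a mean of at least 100). Their median log2 difference was 0.32, against -0.01 over all genes. In efferocytic Mϕ, 60 were higher and 14 lower in LPSEff than in Eff, against 10.7% and 8.95% of all tested genes (15.5% and 12.4% of those with a mean of at least 100), with a median of 0.35 against 0.01. A lncRNA that was high only in stimulated or only in unstimulated samples could enter the set by its mean. Of the 88 with a group mean under 100, 34 (38.6%) were higher and 9 (10.2%) lower in naïve and 36 (40.9%) and 8 (9.09%) in efferocytic Mϕ. The called share of all genes that reached a mean of 100 with a group mean under 100 is not given here. These counts therefore cannot be read as particular to lncRNAs. Of the 136 with every group mean at 100 or more, 28 (20.6%) were higher and 8 (5.88%) lower in naïve Mϕ, against 15.1% and 13% of all genes with such means, and 24 (17.6%) and 6 (4.41%) in efferocytic Mϕ, against 13.6% and 10.1%, with median log2 differences of 0.20 and 0.18. The naïve and efferocytic comparisons share no sample, but both come from the same fit with a shared residual variance. Same-numbered samples also deviated together across groups, so the comparisons are not independent. Both comparisons called 65 lncRNAs, all in the same direction. Another 14 were called only in naïve and 9 only in efferocytic Mϕ, and 136 in neither. The share of all tested genes called in both is not given here, so this agreement cannot be read as particular to lncRNAs. No lncRNA passed the test of the difference between the 2 LPS/IFNγ effects (limma interaction, 9 of 224 at an unadjusted p under 0.05, 0.0% of all genes called).

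With the replicate number as a block, 91 (40.6%) were higher and 27 (12.1%) lower in LPS than in Ctrl (20.5% and 20.7% of all genes) and 94 (42%) were higher and 29 (12.9%) lower in LPSEff than in Eff (19% and 18% of all genes), and every call made without the block was kept. Of genes with a mean of at least 100, the block called 26.6% higher and 26.8% lower in naïve Mϕ. In efferocytic Mϕ it called 26.2% and 23.8%. Scaling all samples to equal totals brought the median log2 difference of all genes to -0.40 in naïve and -0.44 in efferocytic Mϕ, and the split became 51 higher to 35 lower and 44 higher to 44 lower. The members' median was then -0.08 and -0.10, still above those of all genes. The shares of all genes called under equal totals are not given here.

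**Figure D1:**
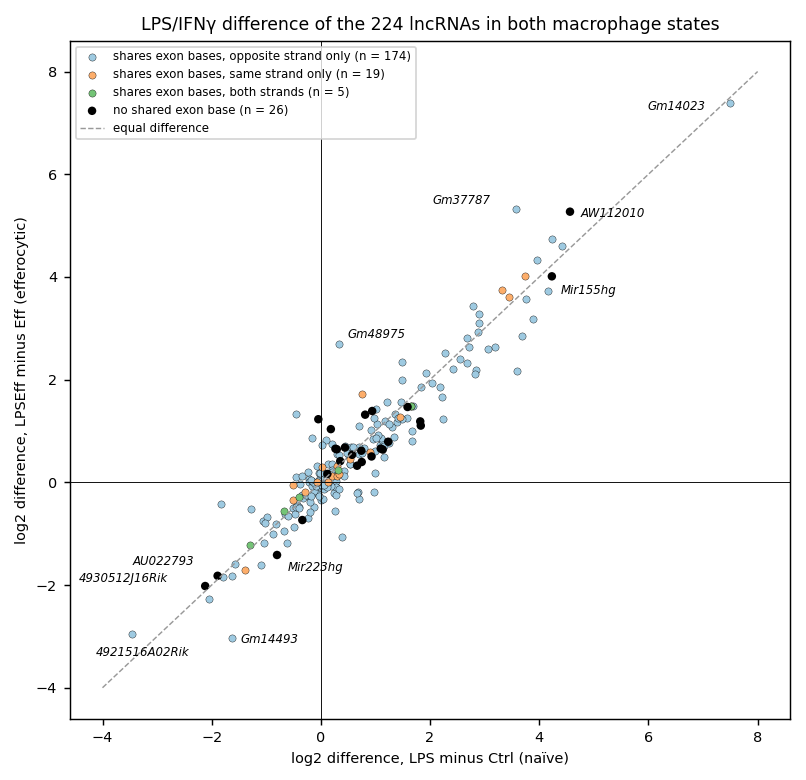
Each point is 1 of the 224 lncRNAs, with its fitted log2 difference between LPS and Ctrl on the horizontal axis and between LPSEff and Eff on the vertical axis, coloured by whether its exons share bases with a protein-coding gene. The points lie along the dashed line of equal difference, from 4921516A02Rik at -3.46 and -2.95 to Gm14023 at 7.50 and 7.39.

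Among the 26 lncRNAs without coding overlap, 9 (34.6%) rose and 2 (7.69%) fell in naïve Mϕ upon LPS/IFNγ, and 5 (19.2%) rose and 3 (11.5%) fell in efferocytic Mϕ. Of all genes with a mean of at least 100, 16.9% rose and 15.6% fell in naïve Mϕ and 15.5% rose and 12.4% fell in efferocytic Mϕ, and the shares among the 26 were near these in efferocytic Mϕ. With the block, 14 (53.8%) rose and 3 (11.5%) fell in naïve Mϕ, and 17 (65.4%) rose and 4 (15.4%) fell in efferocytic Mϕ. Of all genes with a mean of at least 100, 26.6% then rose and 26.8% fell in naïve Mϕ. In efferocytic Mϕ these shares were 26.2% and 23.8%. The median log2 differences of the 26 were 0.70 and 0.65. AW112010 and Mir155hg rose most. AW112010 is a transcript of myeloid cells that inflammatory stimuli induce and for which translation of an unconventional reading frame has been described. It lies at chr19:11021549-11033246, minus strand (GRCm39), in 5 exon blocks, and shares exon bases with no other gene of the table. Its normalised counts were 217 and 337 (Ctrl), 5276 and 7807 (LPS), 147 and 216 (Eff) and 6349 and 7547 (LPSEff). All 4 stimulated samples were far above all 4 unstimulated ones. The log2 difference was 4.56 ± 0.30 (SE) in naïve Mϕ (adjusted p = 6.0e-05) and 5.27 ± 0.30 in efferocytic Mϕ (adjusted p = 3.0e-05), a 23.6-fold and a 38.3-fold rise of the group mean.

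Mir155hg, the primary transcript of the inflammatory microRNA miR-155, lies at chr16:84500055-84512133, plus strand. It held 19.04 and 17.3 (Ctrl), 338 and 382 (LPS), 6.13 and 15.5 (Eff) and 204 and 148 (LPSEff). Stimulated and unstimulated samples did not overlap, and Eff and LPSEff lay below Ctrl and LPS without passing the test (adjusted p = 0.91 and 0.42). Its log2 difference was 4.23 ± 0.41 in naïve (adjusted p = 0.00032) and 4.01 ± 0.41 in efferocytic Mϕ (adjusted p = 0.00041).

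The promoters of these 2 lncRNAs, the most induced without coding overlap, are shown from 250 bases before to 50 after the RefSeq start (GRCm38.p6), AW112010 at chr19:11050517-11050816, minus strand and Mir155hg at chr16:84712773-84713072, plus strand. Capitals mark a match to an NF-κB pattern, GGGA and TTCC separated by any 2 bases, on either strand. AW112010 held 1 such match, with its first base 70 bases before the start, and Mir155hg held none in this window. RefSeq starts were matched by symbol, and whether they are the starts of the GENCODE transcripts was not tested. In the same build, miR-155-5p begins at chr16:84714143, shortly after the Mir155hg window. That window may thus lie inside the annotated host gene, and the lack of a match says nothing about other starts.
AW112010 promoter: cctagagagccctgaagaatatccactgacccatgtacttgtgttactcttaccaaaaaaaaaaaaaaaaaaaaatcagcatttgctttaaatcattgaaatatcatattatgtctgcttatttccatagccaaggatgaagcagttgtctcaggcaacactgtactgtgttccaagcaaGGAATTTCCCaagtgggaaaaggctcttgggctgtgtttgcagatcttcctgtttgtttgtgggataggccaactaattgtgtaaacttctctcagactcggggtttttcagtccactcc
Mir155hg promoter: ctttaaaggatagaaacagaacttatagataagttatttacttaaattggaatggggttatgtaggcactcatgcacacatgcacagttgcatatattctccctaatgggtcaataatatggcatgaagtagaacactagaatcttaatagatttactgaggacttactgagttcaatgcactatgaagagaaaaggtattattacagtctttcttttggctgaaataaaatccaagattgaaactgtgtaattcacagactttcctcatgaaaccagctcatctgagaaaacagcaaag

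Another 7 lncRNAs without coding overlap rose in naïve Mϕ, by smaller amounts. Lncpint, known as a target of p53, had counts of 74.3 and 57.8 (Ctrl), 241 and 227 (LPS), 72.7 and 75.5 (Eff) and 182 and 159 (LPSEff), and its stimulated samples stayed above the unstimulated ones in both states. The opposite-strand lncRNA 2210408F21Rik, which shares 756 of its bases, held 17.7% to 82.2% of its count. The log2 difference was 1.82 ± 0.23 (adjusted p = 0.0011) in naïve and 1.19 ± 0.23 (adjusted p = 0.0084) in efferocytic Mϕ, the latter lost without Eff replicate 1 (adjusted p = 0.056) or LPSEff replicate 1 (0.063). Morrbid, which is known to set the lifespan of short-lived myeloid cells through the neighbouring pro-apoptotic gene Bcl2l11, had counts of 129 and 165 (Ctrl), 332 and 297 (LPS), 182 and 191 (Eff) and 286 and 305 (LPSEff). It rose in naïve Mϕ (1.10 ± 0.20, adjusted p = 0.0064) and missed the threshold in efferocytic Mϕ (0.66 ± 0.20, adjusted p = 0.056, 0.012 with the block), and leaving out Ctrl replicate 1 took the naïve call to an adjusted p of 0.051. 4930455M05Rik rose in both states (1.59 ± 0.37 and 1.47 ± 0.37, adjusted p = 0.017 and 0.026). D030034A15Rik (1.83 ± 0.48), Gm6093 (1.23 ± 0.36) and Gm36486 (1.13 ± 0.20) were called in naïve Mϕ, and with the block also in efferocytic Mϕ. Gm36486 shares 80 bases with the more abundant lncRNA Gm26885, and in Gm6093 a ribozyme-type gene on the opposite strand, Gm25043, accounted for 42.5% to 85.8% of the count. 4930430E12Rik was called only in efferocytic Mϕ (1.04 ± 0.25, adjusted p = 0.023, against 0.18 ± 0.25 in naïve Mϕ), with an unadjusted interaction p of 0.043.

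Malat1 and Neat1, the RNAs of nuclear speckles and paraspeckles, were abundant in every sample. Malat1 (chr19:5845717-5853602, minus strand) held 17595 and 16532 (Ctrl), 25873 and 31386 (LPS), 11511 and 11919 (Eff) and 17214 and 18712 (LPSEff). Each LPS/IFNγ pair lay above its unstimulated counterpart, and each efferocytic pair lay below its naïve counterpart. The log2 difference of 0.74 ± 0.21 in naïve Mϕ passed the test (adjusted p = 0.039) and the 0.62 ± 0.21 in efferocytic Mϕ passed it only with the block (adjusted p = 0.083, 0.015 with the block). The naïve call was lost without any 1 of the 8 libraries (adjusted p from 0.055 to 0.16). Neat1 (chr19:5874736-5897132, minus strand) held 3401 and 3062 (Ctrl), 4762 and 4829 (LPS), 3194 and 2363 (Eff) and 4215 and 3767 (LPSEff), with log2 differences of 0.57 ± 0.20 and 0.54 ± 0.20 (adjusted p = 0.078 and 0.10, 0.0097 and 0.015 with the block), the latter 0.32 without Eff replicate 2. Under quantile normalisation both turned to negative differences, -0.07 and -0.40 for Malat1 and -0.17 and -0.19 for Neat1, and the cause was not tested. Of 15 genes for paraspeckle and speckle proteins, 0 rose and 2 fell in naïve Mϕ, with a median log2 difference of -0.16, and that share of falls was close to the 11.6% of all tested genes. The 2 were Tardbp (-0.64 ± 0.19, adjusted p = 0.045) and the splicing factor Srsf2 (-0.83 ± 0.25, adjusted p = 0.046). In efferocytic Mϕ 0 rose and the paraspeckle protein gene Pspc1 fell (-0.81 ± 0.23, adjusted p = 0.040). With the block, 1 rose and 4 fell in naïve and 1 rose and 3 fell in efferocytic Mϕ. Of all tested genes, 20.5% then rose and 20.7% fell in naïve Mϕ, and 19% rose and 18% fell in efferocytic Mϕ.

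**Figure D2:**
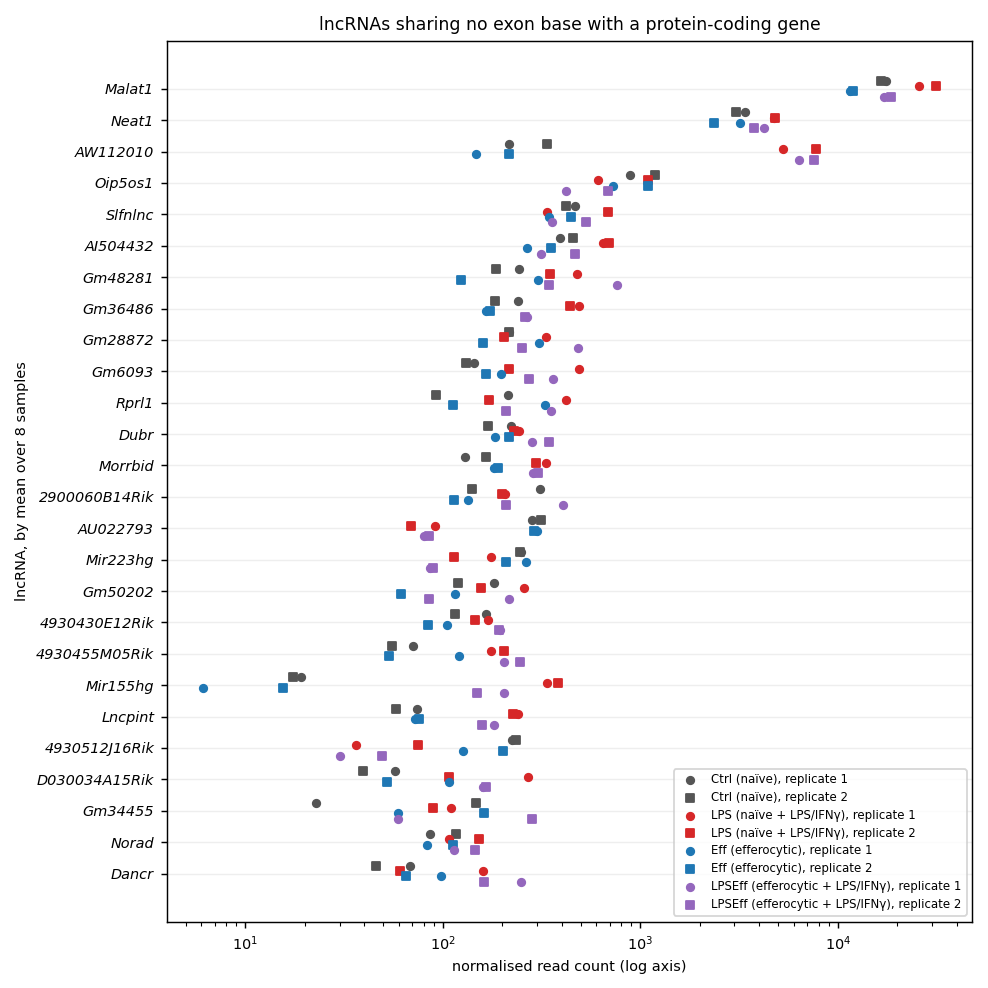
Normalised read counts (log axis) of the 26 lncRNAs that share no exon base with a protein-coding gene, ordered by mean, with 1 point per sample, colour for the group and circle or square for replicate 1 or 2. AW112010 and Mir155hg are split into low unstimulated and high stimulated samples, while AU022793, 4930512J16Rik and Mir223hg show the reverse order. Malat1 and Neat1 are the highest, Malat1 running from 11511 in Eff to 31386 in LPS, and their LPS/IFNγ difference turned negative under quantile normalisation.

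Of the lncRNAs without coding overlap, 4930512J16Rik and AU022793 fell in both states. 4930512J16Rik had counts of 225 and 236 (Ctrl), 36.2 and 75.1 (LPS), 126 and 202 (Eff) and 30.1 and 49.5 (LPSEff), a log2 difference of -2.12 ± 0.41 in naïve Mϕ (adjusted p = 0.0078) and of -2.02 ± 0.41 in efferocytic Mϕ (adjusted p = 0.011, 0.076 without Eff replicate 2 and 0.074 without LPSEff replicate 1). AU022793 had counts of 284 and 313 (Ctrl), 91.8 and 69.1 (LPS), 299 and 289 (Eff) and 80.0 and 85.0 (LPSEff), and all stimulated samples lay below 100 and all others above them. Its log2 differences were -1.89 ± 0.22 (adjusted p = 0.00075) and -1.82 ± 0.22 (adjusted p = 0.00099). The nearest coding gene, Lrp12, fell less (-0.82, adjusted p = 0.017). Across the 19 of the 26 whose nearest coding gene was tested, the naïve log2 differences of lncRNA and neighbour had a Pearson correlation of 0.25, with values from the same samples.

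Besides Mir155hg, 2 more microRNA host transcripts were among the 224, and they went different ways. Mir223hg, the source of the myeloid microRNA miR-223, has no coding overlap and held 249 and 246 (Ctrl), 176 and 114 (LPS), 265 and 209 (Eff) and 86.3 and 88.8 (LPSEff). It was lowest in the stimulated samples and fell in efferocytic Mϕ (-1.41 ± 0.26, adjusted p = 0.0068, 0.058 without Eff replicate 1). The naïve difference missed the threshold (-0.80 ± 0.26, adjusted p = 0.056, 0.0086 with the block), and was -0.49 without LPS replicate 2. The difference between both was not called (limma interaction, adjusted p = 1.0). Mir22hg, the source of miR-22, held 116 and 177 (Ctrl), 397 and 390.0 (LPS), 192 and 216 (Eff) and 439 and 548 (LPSEff), with every stimulated sample above every unstimulated one. It rose by 1.45 ± 0.24 in naïve (adjusted p = 0.0042) and 1.26 ± 0.24 in efferocytic Mϕ (adjusted p = 0.0088, 0.063 without Eff replicate 1 and 0.059 without LPSEff replicate 2). It shares 206 exon bases with Tlcd2 on the same strand, held 277% to 771% of its count, and Tlcd2 did not pass the test (0.53, adjusted p = 0.26).

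The mature microRNAs cut from these 3 hosts are given from RefSeq (GRCm38.p6), 5′ to 3′, with the seed, bases 2 to 8, in capitals. No 2 of the 6 share a seed. The libraries counted the host transcripts, and the mature forms were not measured.
mmu-miR-155-5p: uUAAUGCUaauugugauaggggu
mmu-miR-155-3p: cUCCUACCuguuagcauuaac
mmu-miR-22-5p: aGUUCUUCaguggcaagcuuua
mmu-miR-22-3p: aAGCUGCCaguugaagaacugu
mmu-miR-223-5p: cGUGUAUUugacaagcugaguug
mmu-miR-223-3p: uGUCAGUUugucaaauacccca

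Lists of lncRNAs with known roles, which also hold genes outside the set, gave these counts, to be read against 12.4% of all tested genes higher and 11.6% lower in naïve Mϕ and 10.7% and 8.95% in efferocytic Mϕ. Counts with the block are to be read against 20.5% and 20.7% in naïve Mϕ and 19% and 18% in efferocytic Mϕ. Of 12 tested lncRNAs tied to macrophage responses, 4 of them in the set, 6 rose and 1 fell in naïve Mϕ and 4 rose and 0 fell in efferocytic Mϕ, with medians of 0.89 and 0.92 on the log2 scale. With the block 6 rose and 2 fell, and 7 rose and 1 fell. The list also held U90926, Tug1 and Gm14046, which the annotation does not type as lncRNA and which are left out of these counts. Of 7 microRNA hosts tested, 2 rose in each state (medians 0.15 and 0.24), and with the block 3 in efferocytic Mϕ. Mir223hg, which fell in efferocytic Mϕ (-1.41) and was lower without a call in naïve Mϕ (-0.80), was not on this list. Of 4 snoRNA hosts tested, 0 were called without the block, and with it Dancr rose in each state. Of 3 imprinted lncRNAs tested, 0 were called with or without the block. Of 4 lncRNAs of X inactivation, Tsix rose in naïve Mϕ, and with the block Xist rose and Ftx fell there too (Ftx, -1.30 ± 0.47, adjusted p = 0.027 with the block, 0.080 without). Tsix lies opposite Xist, and as the counts did not separate strands, its rise cannot be told apart from that of Xist. Of 8 genes for microRNA processing proteins, 0 rose and 2 fell in naïve Mϕ, the same 2 as in efferocytic Mϕ. Dgcr8, the RNA-binding partner of Drosha, fell by 0.96 ± 0.28 and 1.03 ± 0.28, and the export factor Xpo5 fell by 0.96 ± 0.19 and 0.74 ± 0.19 on the log2 scale. With the block 3 and 4 fell. Of 13 genes for nuclear RNA decay, 1 rose (Rbm7, 0.72 ± 0.21) and 4 fell in naïve Mϕ (Exosc2, -1.99 ± 0.26, Dis3, -1.33 ± 0.21, Exosc5, -1.15 ± 0.24, and Exosc10, -0.57 ± 0.17), and 1 rose and 3 fell in efferocytic Mϕ. With the block 2 rose and 5 fell, and 2 rose and 6 fell. Exosc2, Exosc5, Exosc10 and Dis3 encode parts of the RNA exosome, and Rbm7 encodes a part of the NEXT complex that brings RNA to it.

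For 5 of the 26, the count was almost wholly that of a small RNA gene lying in their exons. Rnu4atac, a minor spliceosome RNA, held 89.4% to 99.4% of the count of 2900060B14Rik, the snRNA-type genes Gm25682 and Gm23238 on the opposite strand held 99.7% to 100% of that of Gm48281 and 100% to 100.8% of that of Gm50202, and a second Rprl1 identifier held the same count as Rprl1. With Gm28872 they make 5, and none passed the test in either state without the block. With it, Gm48281 rose in both states (0.94 ± 0.48 and 1.39 ± 0.48, adjusted p = 0.0067 and 0.00070), Rprl1 in naïve Mϕ (0.93 ± 0.63, adjusted p = 0.0034), and 2900060B14Rik, Gm28872 and Gm50202 in efferocytic Mϕ (1.23 ± 0.42, 0.65 ± 0.41 and 0.68 ± 0.50, adjusted p = 0.0034, 0.041 and 0.028). The ± values here are from the fit without the block, and the p-values from the fit with it. The difference of Gm28872 was 0.19 without Eff replicate 2, 0.18 without LPSEff replicate 1, 1.12 without Eff replicate 1 and 1.13 without LPSEff replicate 2. Rprl1 and Gm48281 were higher in replicate 1 than in replicate 2 of every group.

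Other known lncRNAs without coding overlap did not pass the test. Norad, which binds Pumilio proteins, had counts of 85.7 and 116 (Ctrl), 107 and 152 (LPS), 83.2 and 112 (Eff) and 114 and 146 (LPSEff) and log2 differences of 0.35 ± 0.30 and 0.41 ± 0.30. Oip5os1, also called Cyrano and known for its site for miR-7, had 889 and 1193 (Ctrl), 608 and 1089 (LPS), 729 and 1099.5 (Eff) and 423 and 684 (LPSEff), and its LPSEff samples were the lowest within each replicate number (-0.73 ± 0.36 in efferocytic Mϕ, adjusted p = 0.20, 0.0022 with the block, but -0.44 without Eff replicate 2 and -0.39 without LPSEff replicate 1). Dancr, a host of the small nucleolar RNA Snora26, had 68.5 and 45.7 (Ctrl), 160.4 and 60.9 (LPS), 98.1 and 64.9 (Eff) and 249 and 161 (LPSEff), with 0.81 ± 0.48 and 1.32 ± 0.48 (adjusted p = 0.27 and 0.092, 0.021 and 0.0017 with the block). Replicate 1 of Dancr was above replicate 2 in every group, and its naïve difference was 0.12 without LPS replicate 1, 0.52 without Ctrl replicate 2 and 1.502 without LPS replicate 2. Of the 2 other snoRNA hosts in the set, 2410006H16Rik differed by -0.16 ± 0.21 and 0.02 ± 0.21, and Zfas1 by 0.28 ± 0.21 and -0.08 ± 0.21.

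The counts of the 198 lncRNAs that share exon bases with coding genes moved with the counts of those genes. Reads over the shared bases cannot be told apart between the 2 genes of a pair. The agreement below is thus a description of the counts and not a result about the lncRNAs themselves. The coding gene was tested in 195 pairs. Of 53 such lncRNAs that rose in naïve Mϕ, the coding gene rose in 52, and of 15 that fell, it fell in 12. In efferocytic Mϕ the coding gene rose in 48 of 55 and fell in 10 of 11. No called pair went opposite ways in either state. Across the 195 pairs the log2 differences of lncRNA and coding gene had a Pearson correlation of 0.95 in naïve and 0.94 in efferocytic Mϕ, over pairs that share samples and bases, and 170 and 179 pairs lay within 0.5 of each other. The lncRNA held a median of 21.6% of the coding gene's count. That ratio varied by a median of 1.5-fold over the 8 samples, while the coding genes themselves varied by a median of 2.55-fold, and it stayed within 2-fold in 150 of the 198 pairs. In 180 pairs the lncRNA was below the coding gene in every sample and in 11 it was above it in every sample.

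**Figure D3:**
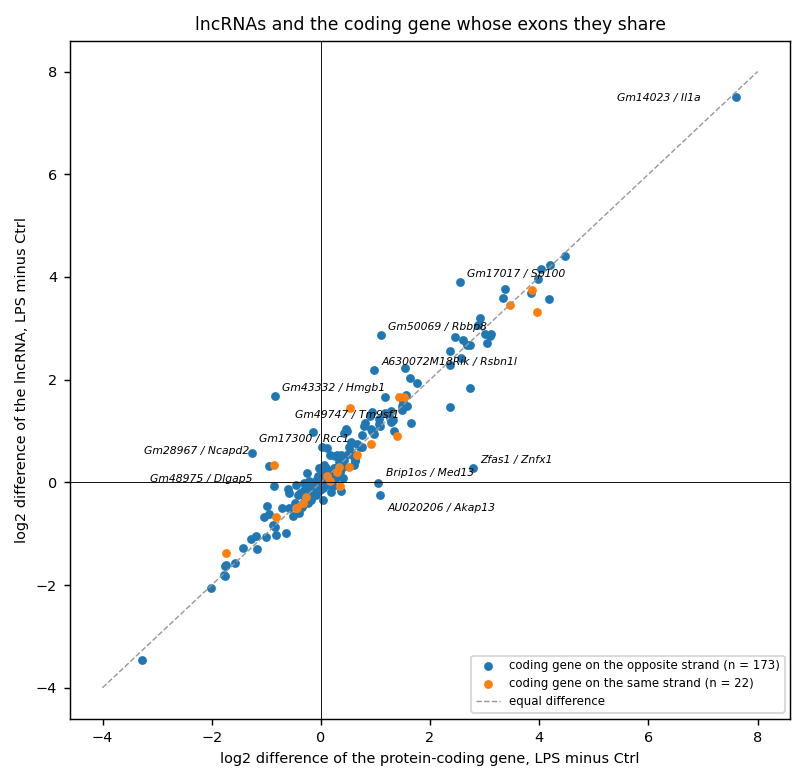
Fitted log2 differences between LPS and Ctrl of 195 lncRNAs (vertical) and of the protein-coding gene with which each shares exon bases (horizontal), in blue where the coding gene is on the opposite strand and in orange where it is on the same strand. Most points lie on the dashed line of equal difference, and the labelled pairs are Gm14023 with Il1a and the 11 more than 1 apart, among them Zfas1 at 0.28 with Znfx1 at 2.78.

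Gm14023 showed the largest difference of the set. It lies at chr2:129139285-129217678, plus strand, in 17 exon blocks, opposite the cytokine gene Il1a, with which it shares 477 bases, or 13.7% of the exon bases of Il1a. Its counts were 60.9 and 28.9 (Ctrl), 10923 and 5521 (LPS), 57.0 and 43.0 (Eff) and 8470.5 and 8481 (LPSEff). Counts of Il1a were 239.9 and 106 (Ctrl), 44202 and 22256 (LPS), 188 and 140.4 (Eff) and 35151 and 29612 (LPSEff). Both were low in every unstimulated and high in every stimulated sample, and LPS replicate 1 was above replicate 2 for both. Gm14023 held between 24.1% and 30.7% of the Il1a count in all 8 samples. On the same strand it shares 24.06% of its exon bases with Il1bos. The log2 differences of Gm14023 were 7.50 ± 0.40 (adjusted p = 3.1e-05) and 7.39 ± 0.40 (adjusted p = 2.5e-05), and those of Il1a were 7.61 and 7.63.

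The promoter window of Gm14023 (chr2:129297120-129297419, plus strand, GRCm38.p6) is shown because this lncRNA rose most. In GENCODE its start lies 63 bases from that of the coding gene Ckap2l on the other strand. A match in the window therefore cannot be assigned to 1 of these 2 genes. Capitals mark a match to the gamma-activated letters TTCNNNGAA, whose first base lies 30 bases before the RefSeq start. The window holds no match to the NF-κB pattern, to the interferon-stimulated pattern (GAAA repeated after any 2 bases) or to the AP-1 letters TGANTCA.
Gm14023 promoter: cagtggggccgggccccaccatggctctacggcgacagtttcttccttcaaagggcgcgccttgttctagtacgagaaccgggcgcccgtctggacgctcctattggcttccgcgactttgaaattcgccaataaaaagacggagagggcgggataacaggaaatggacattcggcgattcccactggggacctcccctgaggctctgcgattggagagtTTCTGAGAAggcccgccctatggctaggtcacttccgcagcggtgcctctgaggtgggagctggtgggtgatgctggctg

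Of the lncRNAs that rose furthest, 4 lie opposite genes known for their induction by interferon. Gm44148 shares 150 bases with Usp18, which removes ISG15 from proteins, and held 47.6 and 41.6 (Ctrl), 733 and 986 (LPS), 35.1 and 27.5 (Eff) and 826 and 882 (LPSEff), between 11.4% and 14.9% of the Usp18 count. Its log2 differences were 4.23 ± 0.23 and 4.74 ± 0.23 (adjusted p = 3.2e-05 and 1.5e-05), with 4.19 and 4.69 for Usp18. Slfn5os, opposite the Schlafen gene Slfn5, held 83.8 and 47.4 (Ctrl), 1192 and 1564 (LPS), 75.4 and 28.2 (Eff) and 1159.8 and 1133 (LPSEff), and rose by 4.41 ± 0.44 and 4.60 ± 0.44 (adjusted p = 0.00038 and 0.00031), beside 4.47 and 4.70 for Slfn5. Dhx58os, opposite the RNA sensor gene Dhx58, held 13.3 and 9.25 (Ctrl), 216 and 214 (LPS), 15.8 and 11.3 (Eff) and 234 and 151 (LPSEff), and rose by 4.16 ± 0.34 and 3.72 ± 0.34 beside 4.04 and 4.14. A930037H05Rik, opposite Rnf213, rose by 3.96 ± 0.26 and 4.34 ± 0.26 and held between 6.59% and 8.03% of the Rnf213 count. All 4 were picked among called rises whose compared groups did not overlap, so their lack of overlap was fixed by that choice.

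On the same strand as the coding gene, Gm45193 shares 1269 bases with Herc6, an E3 ligase of the interferon response, held between 41.0% and 47.6% of its count and rose by 3.74 ± 0.21 and 4.01 ± 0.21. 6530402F18Rik exceeded Ntng2, with which it shares 558 bases, in every sample (between 141% and 325% of its count). It held 74.3 and 86.7 (Ctrl), 1046 and 633 (LPS), 51.7 and 68.5 (Eff) and 1040.3 and 633 (LPSEff) and rose by 3.33 ± 0.33 and 3.75 ± 0.33, beside 3.97 and 4.06 for Ntng2. Of the 19 lncRNAs sharing bases on the same strand only, 6 (31.6%) rose and 0 fell in naïve Mϕ, and 6 (31.6%) rose and 1 (5.26%) fell in efferocytic Mϕ, where 12.4% and 10.7% of all tested genes rose and 11.6% and 8.95% fell. With the block 8 (42.1%) rose and 3 (15.8%) fell, and 8 (42.1%) rose and 1 (5.26%) fell. Of all tested genes, 20.5% then rose and 20.7% fell in naïve Mϕ, and 19% rose and 18% fell in efferocytic Mϕ.

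Immune genes of other kinds had opposite-strand lncRNAs that rose as well. Gm36043, opposite the checkpoint ligand gene Cd274 (PD-L1), held 451 and 327 (Ctrl), 2695 and 3016 (LPS), 299 and 316 (Eff) and 2537 and 2735 (LPSEff), and rose by 2.89 ± 0.20 and 3.10 ± 0.20 (adjusted p = 7.3e-05 and 4.3e-05), beside 3.0026 and 3.11 for Cd274. Gm19412, opposite the peptide-loading gene Tapbp, rose by 2.28 ± 0.24 and 2.52 ± 0.24, and Gm11131, opposite the class I gene H2-Q4, by 1.48 ± 0.20 and 2.34 ± 0.20 (adjusted p = 0.0016 and 0.00019). Class I genes have near-identical copies, so the values of Gm11131 are uncertain. Gm37787, opposite Slamf7, rose from 20.9 and 14.5 to 155 and 307 in naïve Mϕ and from 2.63 and 3.53, near the 3-read floor, to 146 and 176 in efferocytic Mϕ. 4933416M07Rik, opposite Rab11fip1, Gm17017, opposite Sp100, Gm50394, opposite the phosphatase gene Dusp5, Gm20412, opposite Tgm2, and Gm13571, opposite the endocytic receptor gene Ly75, rose by 3.76, 3.89, 3.59, 2.89 and 2.78 in naïve Mϕ and by 3.57, 3.19, 2.17, 3.27 and 3.44 in efferocytic Mϕ. The efferocytic calls of Gm17017 (without Eff replicate 1 or LPSEff replicate 1 or 2, adjusted p up to 0.104) and Gm50394 (without Eff replicate 2 or LPSEff replicate 1, up to 0.082) rested on single libraries.

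Among lncRNAs that fell with their coding gene, 4921516A02Rik, opposite the pyridoxal kinase gene Pdxk, fell furthest. It held 579 and 422 (Ctrl), 50.4 and 38.6 (LPS), 723 and 405 (Eff) and 57.0 and 83.8 (LPSEff), so that stimulated samples were all below the others. The log2 differences were -3.46 ± 0.34 and -2.95 ± 0.34 (adjusted p = 0.00036 and 0.00083), with -3.27 and -3.03 for Pdxk. Gm15441, opposite the thioredoxin inhibitor gene Txnip, held 678 and 1207 (Ctrl), 131 and 358 (LPS), 1143 and 1034 (Eff) and 168 and 303 (LPSEff) and between 26.3% and 29.9% of the Txnip count. It fell by 2.06 ± 0.49 and 2.26 ± 0.49 (adjusted p = 0.019 and 0.014), the former lost without Ctrl replicate 2 (0.12) or LPS replicate 1 (0.074, at a difference of -1.33) and the latter without Eff replicate 1 (0.075), Eff replicate 2 (0.058) or LPSEff replicate 1 (0.095). Gm20659, opposite the phosphatase gene Dusp3, and Gm10138, opposite Ivns1abp, fell in both states (-1.80 and -1.84, and -1.57 and -1.59). Gm17108, opposite the RNA methyltransferase gene Nsun2, did too (-1.29 and -1.22), but lost its naïve call without Ctrl replicate 1 or 2 or LPS replicate 1 (adjusted p up to 0.082) and its efferocytic call without Eff replicate 1 or 2 or LPSEff replicate 2 (up to 0.12). Gm14493, opposite Mid1ip1, fell by 1.63 ± 0.47 in naïve and 3.03 ± 0.47 in efferocytic Mϕ, and the naïve call was lost without Ctrl replicate 1 or 2 or LPS replicate 1 or 2 (adjusted p up to 0.19). Gm20628 and Gm42743 both share bases with the histone gene H2bc18 and are not separate observations, and histone genes have near-identical copies. They differed by -1.62 and -1.38 in naïve and by -1.82 and -1.71 in efferocytic Mϕ, and Gm42743 missed the threshold in naïve Mϕ (adjusted p = 0.082). Without Ctrl replicate 1 or 2, Eff replicate 1 or 2, or LPS replicate 1 or 2, Gm20628 also missed it there (up to 0.24), and in efferocytic Mϕ both missed it without Eff replicate 1 or 2 or LPSEff replicate 1 (up to 0.24), as did Gm42743 without LPS replicate 2 (0.0502). Without LPSEff replicate 1 their efferocytic differences were -1.10 and -1.03.

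**Figure D4:**
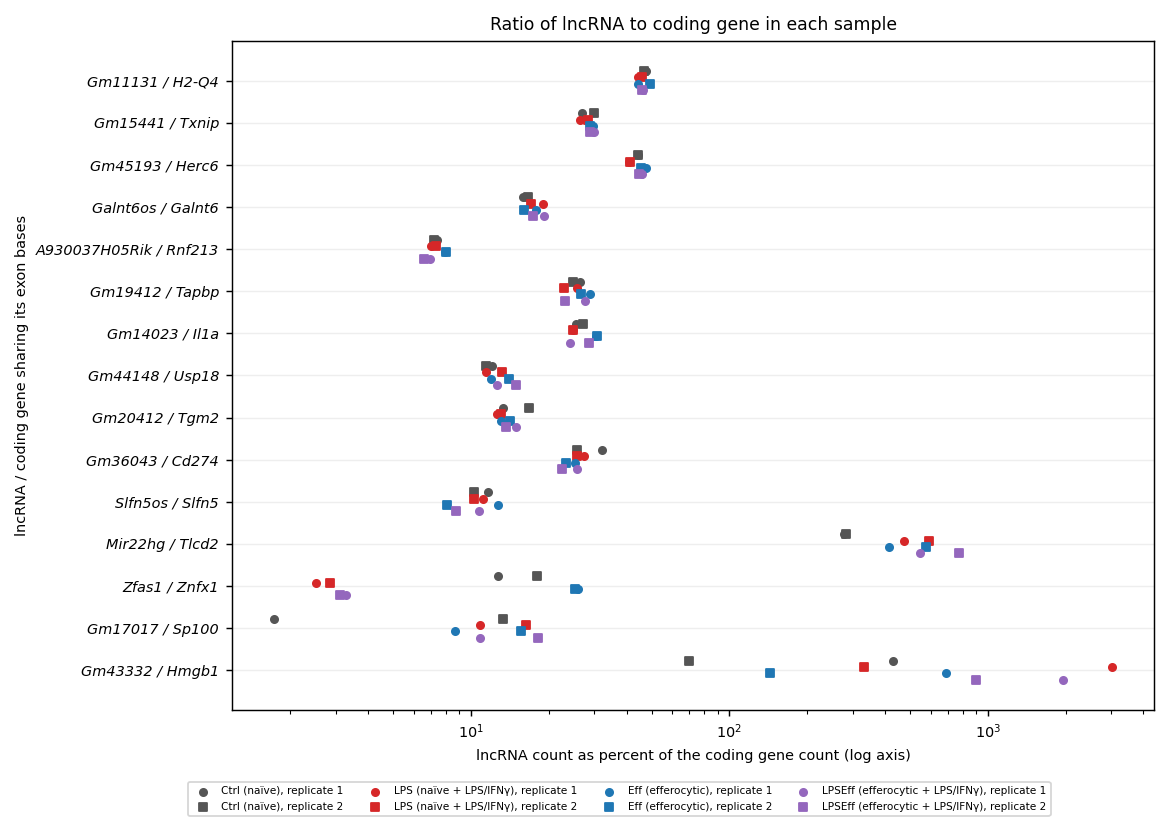
Count of 15 lncRNAs as a percent of the count of the coding gene with which they share exon bases (log axis), with 1 point per sample, ordered by how little the ratio varied. The ratio of Gm45193 to Herc6 stayed between 41.0% and 47.6% and that of Slfn5os to Slfn5 between 8.05% and 12.7%, whereas that of Zfas1 to Znfx1 ran from 2.50% to 26.0% and was lowest in the 4 stimulated samples.

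In 11 pairs the lncRNA and the coding gene were more than 1 apart on the log2 scale in naïve Mϕ. Zfas1, a host of small nucleolar RNAs that starts opposite Znfx1 and shares 196 bases with it, held 149 and 186 (Ctrl), 189 and 215 (LPS), 251 and 227 (Eff) and 222 and 228 (LPSEff), without a difference that passed the test. Znfx1 rose by 2.78 (adjusted p = 4.6e-05) in naïve and 2.91 in efferocytic Mϕ, and the ratio of the 2 fell from 12.7% to 26.0% in unstimulated to 2.50% to 3.30% in stimulated samples. Gm50069 (2.87 and 2.93) and A630072M18Rik (2.18 and 1.85) rose more than Rbbp8 (1.10 and 1.16) and Rsbn1l (0.98 and 0.56), and Gm17017 (3.89) rose more than Sp100 (2.55). The other 7 were not called in naïve Mϕ. Gm43332, with 189 bases shared with Hmgb1, held 236 and 57.3 (Ctrl), 903 and 155 (LPS), 393 and 133 (Eff) and 558 and 377 (LPSEff), and its replicate 1 was above replicate 2 in every group. Differences between lncRNA and coding gene were not tested.

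Xist and Kcnq1ot1 overlap coding genes of far lower counts, and Rmrp overlaps Ccdc107. Rmrp held 27344 and 23096 (Ctrl), 41216 and 33309 (LPS), 28549 and 23592 (Eff) and 47889 and 36948 (LPSEff) and was higher in each stimulated pair without passing the test (0.56 ± 0.27 and 0.70 ± 0.27, adjusted p = 0.17 and 0.11, 0.028 and 0.011 with the block, and differences of -0.0041 and -0.10 under quantile normalisation). Ccdc107, which shares 124 bases with it on the other strand, held 7179 to 22164. Kcnq1ot1, the imprinted antisense transcript of Kcnq1, had 217 and 143 (Ctrl), 172 and 106 (LPS), 155 and 147 (Eff) and 174 and 126 (LPSEff), with no difference that passed. Xist, which coats the inactive X chromosome of female cells, held 343 and 448 (Ctrl), 601 and 663 (LPS), 293 and 384 (Eff) and 317 and 270.3 (LPSEff). Both LPS samples were above all others, and both LPSEff samples were below both Ctrl samples. Xist differed by 0.69 ± 0.22 in naïve Mϕ (adjusted p = 0.058, 0.0094 with the block) and by -0.19 ± 0.22 in efferocytic Mϕ, and by -1.11 ± 0.22 between LPSEff and LPS (adjusted p = 0.089, 0.0050 with the block). Animals of both sexes were used, and counts of the Y-linked genes Ddx3y, Kdm5d and Eif2s3y ran from 199 to 279, from 57.9 to 76.3 and from 127 to 223. Those of the Y-linked gene Uty were 80.4 to 97.0 in naïve and 57.0 to 77.6 in efferocytic samples, so that, like Xist, it was lower in LPSEff than in LPS. The LPSEff and LPS samples of Ddx3y, Kdm5d and Eif2s3y overlapped. The opposite-strand transcript Tsix followed Xist, with 30.5 and 50.3 (Ctrl), 81.5 and 90.4 (LPS), 45.6 and 40.2 (Eff) and 37.2 and 35.5 (LPSEff). Its counts may hold reads of Xist, as overlapping genes were not separated.

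Efferocytosis by itself moved few of these lncRNAs past the test. Between Eff and Ctrl, 0 of 224 were called in either direction (limma, 16 at an unadjusted p under 0.05), against 0.215% of all tested genes called higher and 0.0368% called lower. Between LPSEff and LPS, 1 was higher and 0 lower, against 0.73% and 0.0429%. With the replicate number as a block, 7 were higher and 4 lower in Eff than in Ctrl (1.7% and 0.975% of all genes), and 8 were higher and 8 lower in LPSEff than in LPS (4.32% and 2.65%). Among genes with a mean of at least 100, the block called 1.76% and 1.63% in the former and 5.1% and 3.96% in the latter comparison. DESeq2 without the block called 2 higher and 2 lower, and 3 and 3, and its shares of all genes are not given here. In 4 of the 224 (1.79%) the samples did not overlap in either comparison and the differences had opposite signs, against 1.93% of all tested genes.

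The lncRNA called without the block was BC037039, which shares 1560 bases with the protocadherin gene Pcdhgc3 on the opposite strand. It held 62.8 and 83.9 (Ctrl), 51.7 and 80.2 (LPS), 120.1 and 178 (Eff) and 234 and 305 (LPSEff). Counts were alike in Ctrl and LPS, higher in both Eff samples and highest in both LPSEff samples. Its log2 difference was 2.03 ± 0.32 between LPSEff and LPS (adjusted p = 0.038, 0.00027 with the block) and 1.00 ± 0.32 between Eff and Ctrl (adjusted p = 0.51, 0.021 with the block). Leaving out any 1 library other than Eff replicate 1 ended the first of these calls (adjusted p up to 0.31). Pcdhgc3 changed by 1.90 and 0.97, and BC037039 held between 37.7% and 46.2% of its count. Of 19 fibroblast markers tested, 7 were called higher in Eff than in Ctrl and 8 in LPSEff than in LPS, and 0 lower. One of them, Col1a1, went from 7.62 and 12.1 in Ctrl to 193 and 284 in Eff. It went from 16.8 and 38.6 in LPS to 606 and 537 in LPSEff. Thy1 was lower in both comparisons (-0.28 and -0.44) without a call. Pdgfrb (-1.10) and Cdh11 (-0.23) were lower in LPSEff than in LPS, also without a call. The part of these markers in the lncRNA results was not tested.

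Apol7d and Gm29233 rose in both efferocytosis comparisons with the block. Apol7d shares 429 bases with the fibronectin gene Fn1 and held 81.9 and 37.6 (Ctrl), 122 and 28.4 (LPS), 235 and 146 (Eff) and 496 and 218 (LPSEff), with differences of 1.72 ± 0.70 and 2.46 ± 0.70 (adjusted p = 0.010 and 0.00076 with the block, 0.75 and 0.22 without). Fn1 differed by 1.87 and 2.22. Gm29233 shares 208 bases with the thrombospondin gene Thbs1 and held 34.3 and 20.8 (Ctrl), 384 and 102 (LPS), 259 and 112 (Eff) and 1036 and 586 (LPSEff), with differences of 2.63 ± 0.65 and 1.97 ± 0.65 (adjusted p = 0.00064 and 0.0020 with the block, 0.29 and 0.31 without) beside 2.71 and 2.07 for Thbs1. Gm29233 also rose with LPS/IFNγ (2.84 ± 0.65 and 2.19 ± 0.65, adjusted p = 0.015 and 0.047), the former call lost without Ctrl replicate 2 (0.095) or LPS replicate 1 (0.061) and the latter without any 1 of the Ctrl, Eff or LPSEff libraries (up to 0.24). Without LPS replicate 2, the LPSEff against LPS differences were 1.43 for Apol7d and 1.02 for Gm29233, and without LPS replicate 1 the naïve LPS/IFNγ difference of Gm29233 was 1.89. In both, replicate 1 was well above replicate 2 in every group, and each efferocytic sample lay above the naïve sample of the same number and stimulation.

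With the block, 0610005C13Rik (opposite Bcat2), 6330403L08Rik (opposite the growth factor gene Pdgfa), Gm14236 (opposite Ripor3) and Gm50394 (opposite Dusp5) were also higher in Eff than in Ctrl, by 1.59, 1.21, 1.28 and 1.23. Of these, 6330403L08Rik ranged from 0.51 without Eff replicate 1 to 1.91 without Eff replicate 2. Gm14236 was at 0.34 without Ctrl replicate 2, 0.46 without Eff replicate 1, 2.22 without Ctrl replicate 1 and 2.11 without Eff replicate 2, and Gm50394 at 0.64 without Eff replicate 1. Among the 4 that were lower were Gm37787 (-2.18), Gm48342 (-1.16) and Gm13571 (-1.08). Gm48342 lies opposite Hmgcs1, which encodes an enzyme of cholesterol synthesis and differed by -1.27. Among the smallest unadjusted interaction p-values of the 224 were those of Gm37787 (0.015), 9930014A18Rik (0.016), Gm11131 (0.017) and Galnt6os (0.017), and none passed adjustment.

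Among stimulated Mϕ, the block also called Galnt6os (0.92), Gm15832 (0.96), Dancr (1.01), Gm20412 (0.85) and Gm30934 (0.74) higher in LPSEff than in LPS. It called Malat1 (-0.67 ± 0.21, adjusted p = 0.041), Oip5os1 (-0.60), AI504432 (-0.80), Gm36486 (-0.81), Xist, Gm14493 (-1.22), Gm20531 (-0.81) and 9930014A18Rik (-1.18) lower. Single libraries moved several of these. Without LPS replicate 2, Dancr was at 0.32, Gm20412 at 0.38, Oip5os1 at -0.18 and 9930014A18Rik at -0.73. Without LPS replicate 1, Dancr was at 1.70, Gm20412 at 1.32, Gm15832 at 0.63 and Oip5os1 at -1.02. Without LPSEff replicate 1, Gm20412 was at 0.48, Oip5os1 at -0.25, AI504432 at -0.52 and Gm14493 at -1.84, and without LPSEff replicate 2, Gm30934 was at 0.44, Oip5os1 at -0.94 and Gm14493 at -0.60. Without coding overlap were Dancr among the first and Malat1, Oip5os1, AI504432 and Gm36486 among the second. AI504432 held 392 and 456 (Ctrl), 644 and 697 (LPS), 267 and 352 (Eff) and 315 and 468 (LPSEff), and Gm36486 held 242 and 184 (Ctrl), 490.2 and 439 (LPS), 166 and 174 (Eff) and 268 and 261 (LPSEff). In both, LPS was the highest group and its samples did not overlap those of LPSEff. The summed dendritic cell markers were lower in LPSEff (6564 to 6759) than in LPS (8384 to 16564) too, with Flt3 (-1.61 ± 0.62, adjusted p = 0.0086) and Ccr7 (-0.81 ± 0.29, adjusted p = 0.044) called with the block, and their part in these lower lncRNAs was not tested. The ± values of Malat1, Flt3 and Ccr7 are from the fit without the block. Galnt6os, opposite the glycosyltransferase gene Galnt6, held 402 and 457 (Ctrl), 169 and 184 (LPS), 497 and 460.1 (Eff) and 346 and 324 (LPSEff), with LPSEff between LPS and the unstimulated groups.

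**Figure D5:**
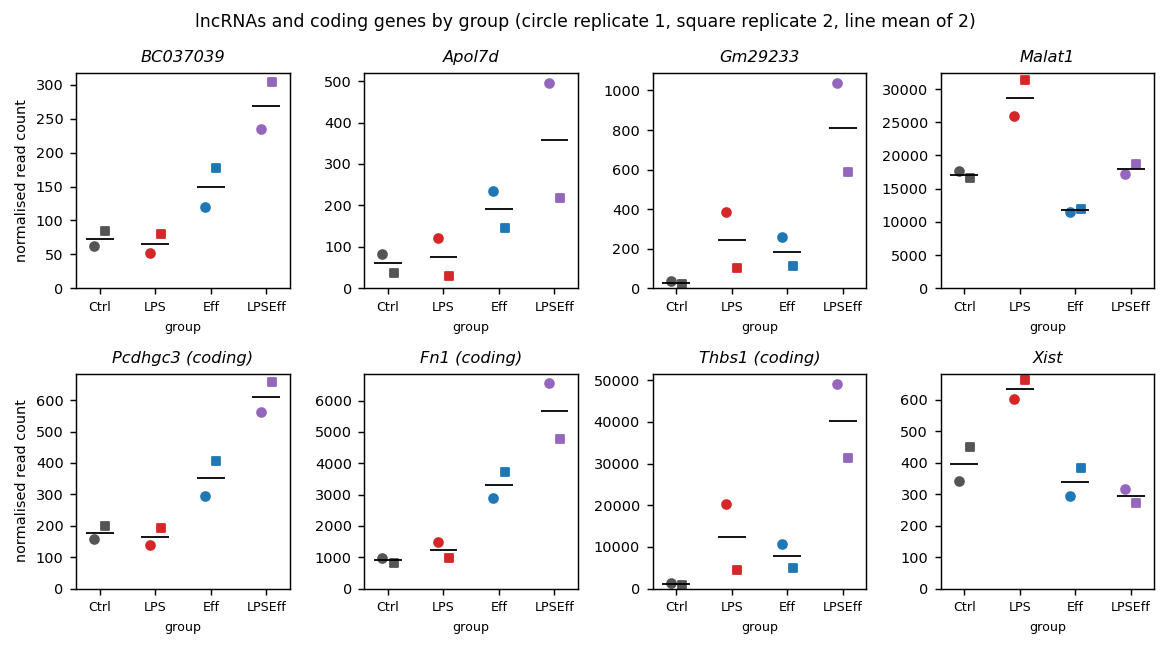
Normalised read counts by group (linear axis from 0) of the lncRNAs BC037039, Apol7d, Gm29233, Malat1 and Xist and, under the first 3, of the coding genes Pcdhgc3, Fn1 and Thbs1 with which they share exon bases, with circles and squares for replicates 1 and 2 and a line at the mean of 2. Each of the 3 lncRNAs has the group order of its coding gene and is highest in LPSEff, whereas Malat1 and Xist are highest in LPS. The LPS/IFNγ difference of Malat1 turned negative under quantile normalisation.

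Many lncRNAs also differed by replicate number. With the block, 74 of the 224 (33%) differed between replicates 1 and 2 over the 4 groups, and 3829 of all tested genes did (23.5%). The largest such differences, replicate 2 minus replicate 1 on the log2 scale, were -1.96 for Gm16010, -1.67 for Gm43332, 1.57 for Plet1os, -1.53 for Gm14236 and 1.4999 for Gm34455. Plet1os, opposite Plet1, held 53.3 and 308 (Ctrl), 122 and 282 (LPS), 83.2 and 218 (Eff) and 129 and 296 (LPSEff), with every replicate 2 above every replicate 1.

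RefSeq promoter windows (GRCm38.p6, 300 bases) were matched by symbol for 71 of the 224, in 85 windows, and for 23 of the 62 that rose in naïve Mϕ. In the 85 windows, the interferon-stimulated pattern occurred in 4 (4.71%, against 3.44% of all 32851 windows), the gamma-activated letters in 4 (4.71% against 8.3%), the NF-κB pattern in 5 (5.88% against 1.47%) and the AP-1 letters in 7 (8.24% against 7.81%). In the 23 windows of lncRNAs that rose, the counts were 1, 2, 3 and 3. Both strands were searched, and a match is a description of the letters only.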

How the data were processed

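Total RNA was depleted of rRNA and sequenced in 8 samples, 2 for each of Ctrl, LPS, Eff and LPSEff, grouped by their labels. The authors trimmed reads with cutadapt, removed rRNA with Bowtie2, mapped to mm39 with STAR, counted with htseq-count defaults and deposited a signal per gene, the read count divided by a size factor. Those defaults use strand and leave out reads over several genes, which the deposited values do not show. Versions and annotation release are not given in the sources used here. Every value was a whole multiple (tolerance 0.01) of a step worth 1 read, so reads were recovered (100% whole).

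Genes were typed and placed with GENCODE M39 (GRCm39, the mm39 build). The test was limma's trend method (version 3.58.1 under R 4.3.3), applied to log2(normalised count + 1) of 16309 genes with a mean of at least 10, with 4 residual degrees of freedom and Benjamini-Hochberg adjustment over all genes, checked on simulated data. This scale understates changes of low counts. Fold changes are ratios of group means. An exact permutation of 2 against 2 cannot go below p = 0.3333. Same-numbered samples deviated together in all 6 pairs of groups (r from 0.404 to 0.595 over genes), so values with the replicate number as a block are given where they change a call. Values after ± are standard errors of the fit without the block, also beside p-values from the fit with it. Alternatives were pseudocounts, filters, groups in the fit, equal totals, quantile normalisation, left-out libraries, edgeR (4.0.16) and DESeq2 (1.42.0) on recovered reads, and, added after the data were seen, edgeR with the block.

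Members and lists were chosen with earlier results of these data known. Named lncRNAs were the highest (10 by count, 5 per kb), up to 10 of the largest called rises and falls per LPS/IFNγ comparison without overlap, all called efferocytosis differences, the 5 smallest interaction p-values, those with a listed role, 3 on each side of the limit and the 5 with the largest replicate difference. Others, such as those of the 26 without coding overlap, were chosen after their values were seen. Results of 2 named lncRNAs are not reported here. Floors cover counting error only.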

Additional observations from a re-analysis of the deposited data

Results flagged for a closer look

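Of the 224 lncRNAs, 4 had Eff and Ctrl samples that did not overlap, LPSEff and LPS samples that did not overlap, and differences of opposite sign, so that efferocytosis went with a change one way in unstimulated and the other way in stimulated Mϕ. They are 1.79% of the set, and 1.93% of all tested genes met the same rule (1.46% of those with a mean of at least 100). None passed the test of that difference (limma interaction, adjusted p = 0.9999 for each). Gm44851, opposite the protease gene Furin, differed by 0.46 between Eff and Ctrl and by -0.10 between LPSEff and LPS (unadjusted p = 0.16). 2900060B14Rik, most of whose count is that of Rnu4atac, differed by -0.75 and 0.52 (unadjusted p = 0.062). 4930430E12Rik, which shares no coding exon, differed by -0.55 and 0.30 (unadjusted p = 0.043). Gm20511, opposite Fmnl1, differed by 0.14 and -0.68 (unadjusted p = 0.069).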

How the results depend on the processing

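Counts of called lncRNAs are given as higher and lower. Shares of all tested genes called under the alternatives other than the limma replicate block are not given here. The counts thus show how calls of these lncRNAs depend on the processing, and cannot be read as particular to lncRNAs. The replicate block gave 91 and 27 for LPS against Ctrl, 94 and 29 for LPSEff against Eff, 7 and 4 for Eff against Ctrl and 8 and 8 for LPSEff against LPS, and edgeR with the block gave 90 and 26, 99 and 28, 7 and 3, and 10 and 13. DESeq2 without the block gave 70 and 18, 68 and 17, 2 and 2, and 3 and 3, and edgeR without it 65 and 17, 62 and 16, 0 and 0, and 1 and 0. Equal totals gave 51 and 35 and 44 and 44 in the LPS/IFNγ comparisons, where 68 of the 79 and 58 of the 74 calls were kept. With only the groups compared in the fit, LPSEff against LPS gave 0 higher. Leaving out 1 library gave 47 to 61 higher and 7 to 17 lower in naïve Mϕ (7 without Ctrl replicate 2, 10 without LPS replicate 1), 39 to 62 higher and 6 to 17 lower in efferocytic Mϕ (39 and 7 without LPSEff replicate 1, 6 without Eff replicate 1, 8 without Eff replicate 2), and 0 to 1 higher in LPSEff against LPS, with 1 without Eff replicate 1. In each such fit the lone sample of a group is assumed to vary like the other groups.

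Quantile normalisation turned the LPS/IFNγ differences of Malat1 (-0.067 and -0.40), Neat1 (-0.17 and -0.19) and Rmrp (-0.0041 and -0.10) negative. Gm16010 differed between LPSEff and Eff by -0.19 without Eff replicate 2 and -0.18 without LPSEff replicate 1, and by up to 2.02 with other libraries left out. The cause was not tested. Over the named lncRNAs and all alternatives, 2173 values kept their direction and side of the threshold, 160 came to pass it, 72 no longer passed and 8 reversed. The shallowest library, Ctrl replicate 1, limits what can be seen at low counts, with 5.71 normalised counts for 3 reads.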
